A study of Arabidopsis thaliana with 12 samples.

Results

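The tRNA calls described here were sought at guanosines at or near positions 9 and 26, known methylation sites of tRNA outside the anticodon loop. They were taken from the 6 tRNA-seq libraries of the study as every listed site whose reference base is G and which lies at base 9 or 10, or at bases 25 to 28, of a tRNA reference, whatever the amino acid. A listed site is a base of 1 tRNA reference where the genotype call of a library held a copy of a base other than the reference base. The rule found 129 such sites among the 1156 listed in any library, and 359 of 2830 calls over the 6 libraries. All 359 lay at bases 25 to 28, and none lay at base 9 or 10. They fell in 129 of 510 listed tRNA references, in 51 of 169 isodecoders (references whose names mark them as identical in sequence) and in 23 of 47 families, a family being an amino acid with its anticodon. Of the 6 libraries, 3 are of wild type *Arabidopsis thaliana* (Col-0) and 3 of *trm5-1*, a line homozygous for a T-DNA insertion in *TRM5*, which encodes the methyltransferase of position 37. Both genotypes are in the Columbia background, and no second insertion allele or complemented line was sequenced. All are from whole seedlings of 10 days, with RNA cut from a gel at the size of tRNA, and the labels number them as replicates 2, 3 and 4 in each genotype. The labels do not say whether the replicates were grown separately, while a figure legend of the paper speaks of 3 biological replicates. The p-values here rank a difference among those got by rearranging these libraries, and they reach no further than these libraries.

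In eukaryotic tRNA, guanosine at position 9 can carry a methyl group on N1, placed by enzymes of the TRM10 family, and guanosine at position 26, between the D arm and the anticodon stem, commonly carries 2 methyl groups on N2, placed by TRM1. These roles were worked out mainly in yeast and human cells. Such groups sit on the edge of the base that pairs, so reverse transcriptase can stop there or insert another base, and a sequencing assay can list such a position as a variant. TRM5 acts on a different position, and position 26 is therefore a site in the same molecules that the mutated enzyme is not known to modify.

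The families with most calls are shown with the sequence of 1 annotated gene each, so that the base can be seen in its place. Capitals mark the guanosine called in the libraries, followed by the anticodon. Each is the most frequent sequence of the family's annotated genes with G at that base, read from RefSeq for TAIR10.1, and the references of the files are not tied to single genes.
tRNA-Ser-(AGA): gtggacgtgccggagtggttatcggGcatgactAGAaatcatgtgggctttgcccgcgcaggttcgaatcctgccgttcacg
tRNA-Lys-(CTT): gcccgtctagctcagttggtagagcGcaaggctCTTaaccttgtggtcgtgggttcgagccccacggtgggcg
tRNA-Thr-(CGT): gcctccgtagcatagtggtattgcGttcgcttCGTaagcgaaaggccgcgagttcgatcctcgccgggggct
tRNA-Ala-(CGC): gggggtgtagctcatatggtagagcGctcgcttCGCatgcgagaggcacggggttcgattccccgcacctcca
tRNA-Ala-(TGC): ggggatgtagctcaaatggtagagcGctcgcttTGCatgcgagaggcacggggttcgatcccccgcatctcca
tRNA-Val-(TAC): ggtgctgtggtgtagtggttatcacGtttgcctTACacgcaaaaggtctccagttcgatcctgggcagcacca
tRNA-Ser-(GCT): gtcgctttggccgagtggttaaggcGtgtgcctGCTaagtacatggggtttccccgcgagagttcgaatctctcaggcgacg
tRNA-Ile-(TAT): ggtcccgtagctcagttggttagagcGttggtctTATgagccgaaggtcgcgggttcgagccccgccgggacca
tRNA-Leu-(TAA): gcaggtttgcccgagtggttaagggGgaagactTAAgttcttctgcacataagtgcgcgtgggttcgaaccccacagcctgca
In these sequences the called guanosine lies 8 bases before the first base of the anticodon, which is position 26 of the standard numbering. It is base 25 in tRNA-Thr-(CGT), base 27 in tRNA-Ile-(TAT) and base 26 in the others, since the D loop differs in length. The gene of tRNA-Ser-(AGA) is AT1G15650 (chr1:5380907-5380988, plus strand), that of tRNA-Lys-(CTT) is AT1G01890 (chr1:309275-309347, minus strand) and that of tRNA-Thr-(CGT) is AT1G13720 (chr1:4709635-4709706, plus strand). Those of the alanine families are AT1G64420 for tRNA-Ala-(CGC) (chr1:23933137-23933209, plus strand) and AT1G08870 for tRNA-Ala-(TGC) (chr1:2846536-2846608, minus strand). The remaining genes are AT1G01870 for tRNA-Val-(TAC) (chr1:306384-306456, plus strand), AT2G44320 for tRNA-Ser-(GCT) (chr2:18309977-18310058, minus strand), AT1G07100 for tRNA-Ile-(TAT) (chr1:2177885-2177958, plus strand) and AT2G36510 for tRNA-Leu-(TAA) (chr2:15320234-15320316, plus strand). All are tRNA genes of the nuclear chromosomes.

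Of the 359 calls, 348 (96.9%) lay at position 26 of their family as placed by the annotated genes. By base of the reference, 37 calls were at base 25, 270 at base 26, 51 at base 27 and 1 at base 28. The other 11 calls came from 3 families. They were tRNA-Cys-(GCA) at base 25, tRNA-Pro-(TGG) at base 27 and tRNA-Ser-(GCT) at base 27. In these, no annotated gene of the family has its position 26 at the called base with G there. Calls at a reference G were fewer beside the window than in it, with 27 over bases 12 to 24 and 1 over bases 29 to 31. The window held 56.7% of the 633 calls at a reference G of any base. Calls at a G were found in all 6 libraries at bases 25, 26 and 27 and, outside the window, at bases 23 and 38. At base 23 they numbered between 1 and 4 in a library, and at base 26 between 36 and 51. The largest count outside the window was 34 at base 40, in wild type replicate 3 alone.

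**Figure D1:**
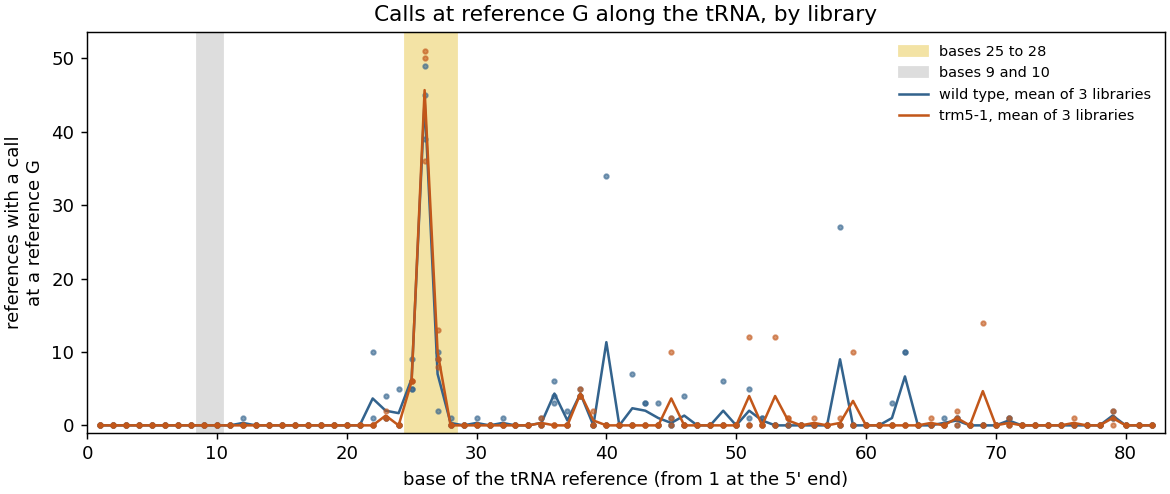
Number of tRNA references with a call at a reference G (y axis) against the base of the reference counted from the 5′ end (x axis), with points for single libraries and lines for the mean of 3 libraries of wild type (blue) and *trm5-1* (orange). Base 26 holds 36 to 51 references in each library, while bases 9 and 10 (grey band) hold none.

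The empty window at bases 9 and 10 holds for every family and library. Among 625 annotated nuclear tRNA genes, 303 have G at base 9 and 565 have G at base 10, so guanosines were there to be called. The lowest base listed in any file, whatever its reference base, was 12 and the highest was 82. The files hold no read depth, and an unlisted base can be a reference call or a base without a call. A difference between genotypes at position 9 was therefore not detectable in these files.

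The number of references with a call at bases 25 to 28 was 65, 53 and 56 in wild type replicates 2, 3 and 4. It was 65, 50 and 70 in those of *trm5-1*. The lowest and the highest library were both *trm5-1*, and the genotypes overlapped. Wild type averaged 58 ± 6.24 references and *trm5-1* 61.7 ± 10.4 (SD, n = 3 each), a difference of 3.67 (p = 0.8, two-sided exact permutation test, for which 3 libraries against 3 allow no p under 0.1). The direction is not stable, since the difference was -6.67 without tRNA-Ser-(AGA), -0.5 without *trm5-1* replicate 4 and 9.5 without *trm5-1* replicate 3. Listed sites of all kinds came to 432, 542 and 417 for wild type and to 524, 408 and 507 for *trm5-1*. As a share of them, the window took 12.8% ± 2.7 for wild type against 12.8% ± 0.856 for *trm5-1* (SD, n = 3 each, exact permutation p = 1). Counted in isodecoders, wild type had 26, 20 and 15 with a call against 26, 19 and 28 for *trm5-1*, and counted in families it had 13, 12 and 10 against 12, 9 and 15. Neither count separated the genotypes (two-sided exact permutation p = 0.5 and p = 1).

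Identical references were called together. An isodecoder with 2 or more listed references was called at a base of the window in 54 cases, counted per library. All its references were called in 53 of these cases, and the called base and copy number were the same throughout in all 54. The largest such isodecoder had 20 references. Counts of references therefore weigh an isodecoder by its number of gene copies, and references are not independent observations.

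Single sites were called unevenly across the libraries. Of the 129 sites, 30 were called in 1 library, 39 in 2, 22 in 3, 8 in 4, 27 in 5 and 3 in all 6. Both genotypes shared 58 of the sites, 41 were called in wild type alone and 30 in *trm5-1* alone. In these counts, 1 isodecoder of tRNA-Lys-(CTT) made up 15 of the sites called in wild type alone. Likewise, 1 isodecoder of tRNA-Ser-(AGA) made up 20 of those called in 5 libraries. The split by genotype was not counted over all 1156 listed sites, so it does not set the window apart from other sites.

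The called base was T in 221 of the 359 calls, A in 136 and C in 2. tRNA-Ser-(AGA) held 116 of the calls to A, and the other 20 came from other families. Calls to T came from 20 of the 23 families, and 14 families had no other called base. In wild type replicates 2, 3 and 4 the window had 56, 29 and 34 calls to T and 9, 24 and 22 to A. In those of *trm5-1* it had 36, 24 and 42 to T and 28, 26 and 27 to A. Wild type replicate 2 stood above the other 5 libraries, with 86.2% of its calls to T against 48% to 60.7% in the rest. The percentage of calls to T averaged 67.2% ± 16.7 over the wild type libraries against 54.5% ± 6.05 for *trm5-1* (SD, n = 3 each), a difference of -12.7 percentage points (two-sided exact permutation p = 0.3), and the genotypes overlapped. It was -3.25 points without wild type replicate 2 and -2.33 points without tRNA-Ser-(AGA).

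At reference G outside the window, the called base was T less often in the same libraries. The percentage there was 56.5, 36.4 and 33.9 for the wild type libraries and 33.3, 45.5 and 17.9 for those of *trm5-1*. It rests on 46, 77 and 59 calls for wild type and on 42, 11 and 39 for *trm5-1*. Of these, 34 of the 77 lay at base 40 in wild type replicate 3, and 27 of the 59 at base 58 in replicate 4. The window was higher in 6 of 6 libraries, by a mean of 23.6 percentage points (SD 13.1). In *trm5-1* replicate 3, with 11 calls outside the window, it was 48% against 45.5%. This comparison was chosen after seeing the data. An exact sign-flip test over the 6 libraries gave p = 0.0312, two-sided, which is the smallest it can give, and 0.0625 after adjustment over the 2 comparisons of this kind. The difference is thus not below 0.05 after adjustment.

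**Figure D2:**
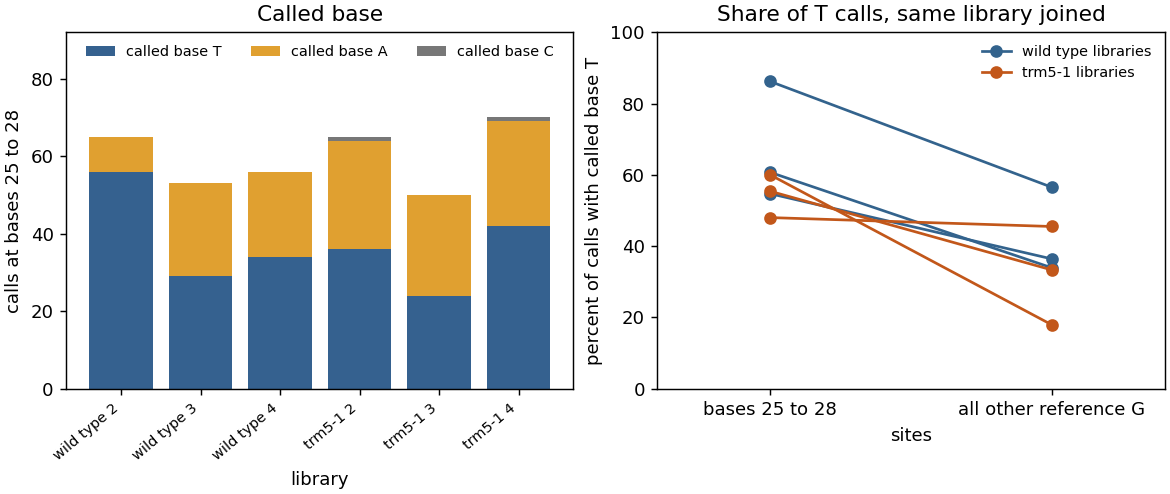
Left, calls at bases 25 to 28 in each library (y axis, number of references) by called base. Right, the percentage of calls with T as called base at bases 25 to 28 and at all other reference G, with a line for each library; all 6 lines fall from left to right.

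Most calls kept a reference copy. A genotype call has 2 copies, and 326 calls had 1 copy of the called base, while 33 calls (9.19%) had both, 31 of them T and 2 of them A. Wild type had 3, 8 and 6 calls with both copies, against 9, 2 and 5 for *trm5-1*. Their share was 10.1% ± 5.26 and 8.33% ± 5.03 (SD, n = 3 each, two-sided exact permutation p = 0.7), the genotypes overlapped, and the sign of the difference turned without wild type replicate 3 (0.665 points) or *trm5-1* replicate 3 (0.353 points). At all other listed sites both copies were called in 9.41% to 35.8% of calls in a library. The window lay below that level in 4 of 6 libraries, with a mean difference of -13.3 percentage points (SD 15.4, exact sign-flip p = 0.125 before and after adjustment).

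The calls formed 25 combinations of family and base, of which 16 are named below. In 2 combinations (8%) all wild type libraries lay above all *trm5-1* libraries, tRNA-Val-(TAC) and tRNA-Arg-(TCT), against 2.37% of the 211 combinations of family and base with any call. The 211 include the 25 of the window. In 3 combinations (12%) all *trm5-1* libraries lay above, tRNA-Ala-(TGC), tRNA-Cys-(GCA) and tRNA-Ser-(AGA), against 5.21% of the 211. For each of the 5, the exact permutation test gave its smallest p of 0.1, unadjusted, and these small counts set no family apart from that background.

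**Figure D3:**
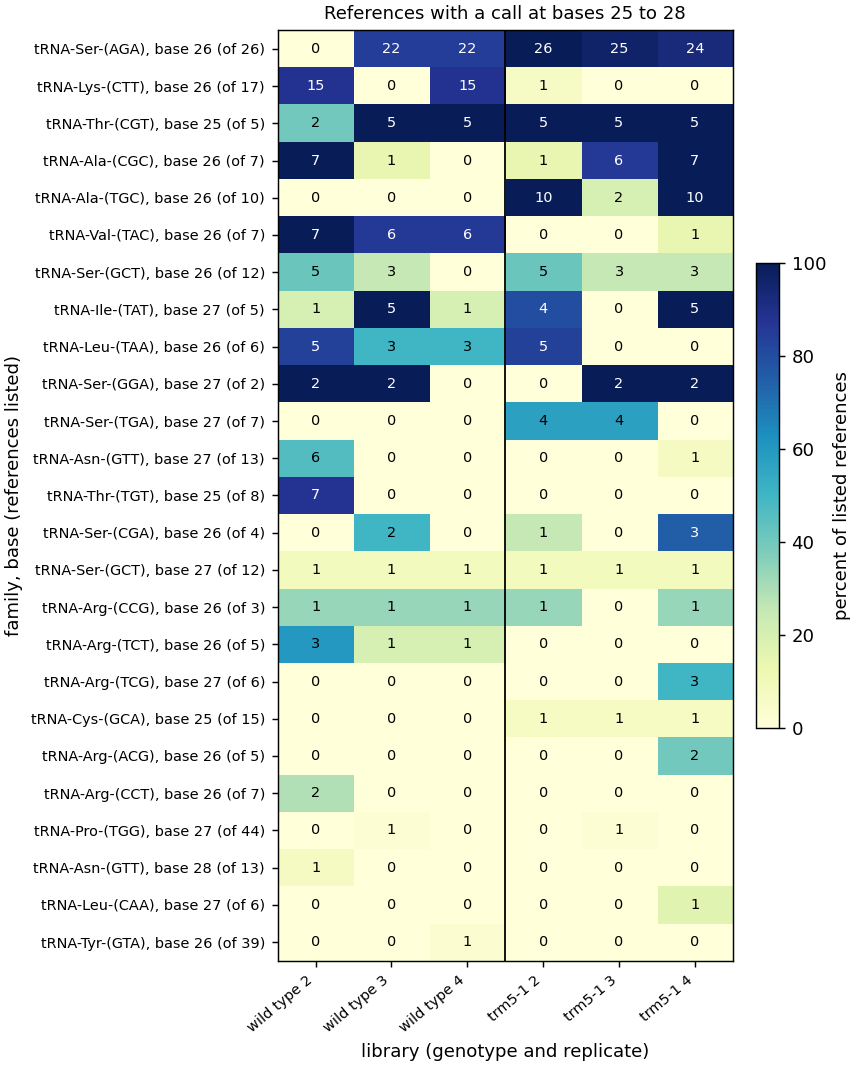
References with a call at bases 25 to 28 in each family and base (rows, with the number of references listed for the family in brackets) and library (columns); numbers are references and colour is their percentage of the listed references. tRNA-Val-(TAC) has 6 or 7 of 7 references in each wild type library, tRNA-Ala-(TGC) has 10, 2 and 10 of 10 references in *trm5-1* alone, and tRNA-Ser-(AGA) has 22 to 26 of 26 in 5 of 6 libraries.

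tRNA-Val-(TAC), which decodes a valine codon, had the clearest excess of calls in wild type. Calls at base 26 covered 7, 6 and 6 of its 7 references in the wild type libraries. In *trm5-1* they covered 0, 0 and 1, and the genotypes did not overlap. The called base was T throughout, with both copies in 1 reference of wild type replicate 2. Of its 3 isodecoders, 2 were called in every wild type library and in no *trm5-1* library. The third was called in wild type replicate 2 and *trm5-1* replicate 4. These references had no call at any other base in any library, so the files do not show whether the base was read in the *trm5-1* libraries without a call.

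The tRNA-Lys-(CTT) references, unlike those of tRNA-Val-(TAC), also had calls at another base. Its references were called at base 26 in 15, 0 and 15 of 17 in wild type and in 1, 0 and 0 in *trm5-1*. Wild type replicate 3 lay with the *trm5-1* libraries, so the genotypes overlapped. The 15 references are 1 isodecoder called to T, and the single *trm5-1* call is another isodecoder called to A. The 15 references had a call at base 58, a reference A, in all 6 libraries, to T in each wild type library and to G in each *trm5-1* library. They were thus listed in every library, also where they had no call at base 26. Depth is not given, so a call at base 58 does not show whether base 26 was read. Counted in isodecoders, the difference at base 26 was -0.333 on average, in place of -9.67 in references.

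tRNA-Leu-(TAA), a leucine tRNA with a long variable arm, had 6 references, of which wild type was called at base 26 in 5, 3 and 3 and *trm5-1* in 5, 0 and 0. All were to T with 1 copy. The genotypes overlapped through *trm5-1* replicate 2, which equalled the highest wild type library. The same references were called at base 68, a reference A, to T in 5, 3 and 3 references of *trm5-1* but never in wild type.

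tRNA-Arg-(TCT) had calls at base 26 in 3, 1 and 1 of its 5 references in the wild type libraries, and *trm5-1* had none. In wild type replicate 2 the called base was A in 2 references and T in 1, and replicates 3 and 4 each had 1 call to T with both copies. Calls at other bases of these references were found in 1, 3 and 0 references of *trm5-1*. The group difference rests on single references in 2 of the 3 wild type libraries. tRNA-Arg-(CCG) was called in 1 reference in 5 of 6 libraries, without *trm5-1* replicate 3, always to T.

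**Figure D4:**
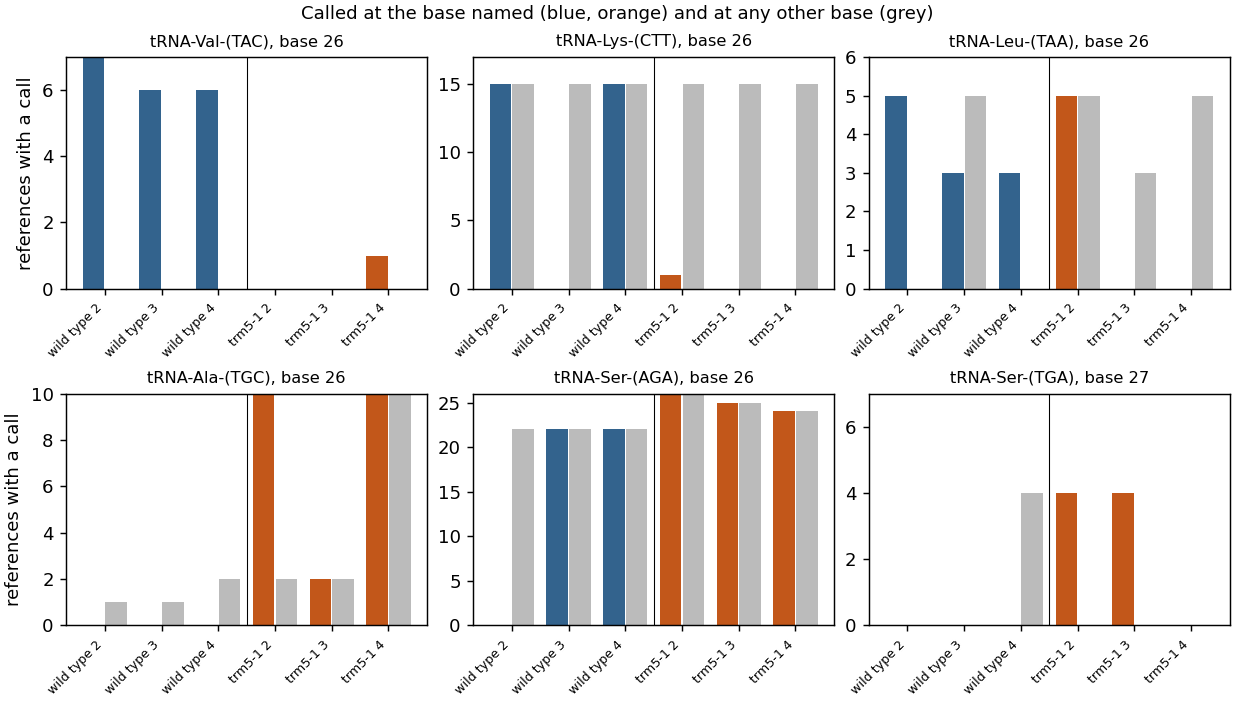
References with a call at the base named (blue, wild type; orange, *trm5-1*) and at any other base of the same references (grey), by library, for 6 families; each y axis ends at the number of references listed. In tRNA-Lys-(CTT) the grey bars stand at 15 in all 6 libraries, and in tRNA-Val-(TAC) they are 0.

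The alanine families differed from each other. tRNA-Ala-(TGC) had no call at base 26 in any wild type library. In *trm5-1*, 10, 2 and 10 of its 10 references were called, and the genotypes did not overlap. The called base was T except for 1 A in *trm5-1* replicate 2. Both copies were T in 8 references of *trm5-1* replicate 2 and 1 of replicate 3, and replicate 4 had 1 copy in all 10. Calls at other bases of these references were found in 1, 1 and 2 references of the wild type libraries and 2, 2 and 10 of those of *trm5-1*. Only *trm5-1* replicate 4 stood apart in these, and their part in the result was not tested. Most of the 10 references had no call at any base in a wild type library, so it is not known whether base 26 was read there. tRNA-Ala-(CGC) was called in 7, 1 and 0 of 7 references in wild type and 1, 6 and 7 in *trm5-1*. The genotypes overlapped from the lowest to the highest counts. In wild type replicate 2 the called base was A in 6 of the 7 references, and in every other library it was T. Calls at other bases were found in 5 to 7 of the 7 references in every library.

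tRNA-Ser-(AGA), a serine tRNA with a long variable arm had 119 calls, the most of the 23 families. Of its 26 references, 0, 22 and 22 were called at base 26 in wild type and 26, 25 and 24 in *trm5-1*. Every *trm5-1* library lay above every wild type library, but wild type replicates 3 and 4 were lower than *trm5-1* replicate 4 by 2 references, and replicate 2 had none. Every wild type call was to A, and in *trm5-1* A was called in 25, 25 and 22 references and T in the remaining 3. Among the 26 references, 4, of 3 isodecoders, were called at base 26 in *trm5-1* alone, and these had 4 calls at any base in wild type. Wild type replicate 2, which had no call at base 26, was called elsewhere in this family. It had calls to T at base 32 and to G at base 34 in 22 references each, with both copies, where the other libraries had mostly 1 copy at these bases. Base 34 is the first base of the anticodon, where A is changed to inosine in tRNAs of this kind. The paper states that reverse transcriptase reads inosine as G.

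The other serine families had fewer calls. tRNA-Ser-(GCT) was called at base 26 in 5, 3 and 0 of 12 references in wild type and 5, 3 and 3 in *trm5-1*, always to T. A further reference of this family was called to T at base 27 in all 6 libraries. tRNA-Ser-(GGA) was called at base 27 in 2, 2 and 0 of its 2 references in wild type and 0, 2 and 2 in *trm5-1*. tRNA-Ser-(CGA) was called in 0, 2 and 0 of 4 references against 1, 0 and 3, to A or C and in no case to T. These families overlapped between the genotypes. tRNA-Ser-(TGA) was called at base 27 in 4, 4 and 0 of 7 references in *trm5-1* and in none of wild type. The genotypes still overlapped at 0, through *trm5-1* replicate 4.

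In tRNA-Thr-(CGT) the genotypes overlapped in the number of references called, and they also met at 1 reference in the number with both copies. It was called to T at base 25 in 2, 5 and 5 of 5 references in wild type and in all 5 in each *trm5-1* library. Wild type had both copies called in 1, 5 and 5 of these references, against 0, 1 and 0 for *trm5-1*. In 2 of the 3 isodecoders all 9 wild type calls had both copies and all 12 *trm5-1* calls had 1. These calls are not independent, since 1 of the 2 isodecoders has 3 references called together. It was not called in wild type replicate 2. The third isodecoder was mixed, with 1 copy in wild type replicate 2 and both copies in *trm5-1* replicate 3. Since depth is not given, a change in the share of reads with T and a change in depth or mapping cannot be told apart. The contrast in copy number was picked out after its values had been seen. It has no test and was not counted over other combinations.

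tRNA-Ile-(TAT) was called to T at base 27 in 1, 5 and 1 of 5 references in wild type and in 4, 0 and 5 in *trm5-1*. The genotypes overlapped, and wild type replicate 3 and *trm5-1* replicate 4 were highest. tRNA-Cys-(GCA) was called to A at base 25 in the same single reference in each *trm5-1* library and in no wild type library. No annotated gene of this family has G at position 26. The remaining 9 combinations held 26 calls, 16 of them in wild type replicate 2 and 7 in *trm5-1* replicate 4. Among these, tRNA-Thr-(TGT) accounted for 7, all from wild type replicate 2.

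Position 26 is G in at least 1 annotated gene of 33 families, and 21 of these were called there. A further 10 were listed at other bases but had no call at position 26 in any library. These were tRNA-Ala-(AGC), tRNA-Ile-(AAT), tRNA-Leu-(AAG), tRNA-Leu-(TAG), tRNA-Lys-(TTT), tRNA-Met-(CAT), tRNA-Phe-(GAA), tRNA-Trp-(CCA), tRNA-Val-(AAC) and tRNA-Val-(CAC). Among them tRNA-Leu-(TAG) and tRNA-Met-(CAT) had calls at other bases in all 6 libraries, and tRNA-Ala-(AGC) had 141 such calls over 3 libraries. In yeast TRM1 favours tRNAs with the pairs G10-C25 and C11-G24 in the D stem. In the most frequent annotated sequence, 17 of the 21 called families had the first pair and 20 had the second, and 16 had both. Of the 12 families without a call at position 26, including 2 that were not listed at all, 12 had the first pair, 9 the second and 9 both. The called families without the first pair were tRNA-Leu-(TAA), tRNA-Ser-(AGA), tRNA-Ser-(CGA) and tRNA-Ser-(TGA), and tRNA-Val-(TAC) lacked the second. The pairs did not mark off the called families, and the numbers are a description without a test.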

How the data were processed

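tRNA of 3 wild type and 3 *trm5-1* libraries was used, and the leaf RNA-seq tables of the same study were not used here. The authors trimmed reads with Trim Galore 0.4.2, mapped them to tRNA references with segemehl, called variants with GATK 3.7 as diploid genotypes and deposited, per the file headers, the number of copies (0, 1 or 2) of each base at each variable site. These values are neither read counts nor depths, every line has 2 copies, and reads shared by similar references can be placed on either. Values near the detection limit of the caller can move between 0, 1 and 2 copies with depth, and depth is not given.

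Calls were selected by reference base and base number, and counted per library, family and isodecoder in Python 3.11.15 with pandas 2.3.3 and numpy 2.4.6. Position 26 was placed 8 bases before the anticodon in 621 of 625 nuclear tRNA genes of TAIR10.1 (RefSeq). The files' positions are within tRNA references, so no genome coordinates were mixed. Genotypes were compared by exact permutation tests over libraries, two-sided, and bases 25 to 28 with other sites by exact sign-flip tests within libraries, the latter chosen after seeing the data. The tests were checked on small sets of values with known answers, and the count of combinations that do not overlap was checked on simulated counts. Named combinations of family and base have calls in at least 3 libraries, or in at least 2 libraries of 1 genotype and none of the other. Bases 68 and 58 and the copy number of tRNA-Thr-(CGT) were described after their values were seen. The members and lists were chosen with earlier results of these data known. Alternatives were families or isodecoders as units, shares of listed sites, calls with both copies alone, single bases, the replicate number as a block, and each library or tRNA-Ser-(AGA) left out. Figures were drawn with matplotlib 3.10.9.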

Additional observations from a re-analysis of the deposited data

How the results depend on the processing

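The permutation tests of 3 libraries against 3 and the blocked tests cannot reach 0.05, and bases 9 and 10 had no call under any setting, so their place relative to the threshold says nothing about stability. For single combinations of family and base, 8 of 128 alternatives moved the difference by more than the spread between libraries, and 6 changed its sign, in 5 combinations. These were tRNA-Arg-(CCG) (from -0.333 to 0.333) and tRNA-Thr-(CGT) (from 1 to -3.33) with both copies required, tRNA-Ile-(TAT) (from 0.667 to -0.333) in isodecoders and without *trm5-1* replicate 4, tRNA-Ser-(CGA) (from 0.667 to -0.167) without *trm5-1* replicate 4, and tRNA-Ser-(GCT) at base 26 (from 1 to -0.333) without wild type replicate 4. The difference in references called at bases 25 to 28 (3.67 in the main analysis) was -0.333 with both copies required and -6.67 without tRNA-Ser-(AGA), the latter chosen after seeing the data, and ran from -0.5 (without *trm5-1* replicate 4) to 9.5 with each library left out. The difference in the percentage of calls with both copies ran from -4.57 to 0.665 with each library left out, above 0 without wild type replicate 3 and without *trm5-1* replicate 3 (0.353). That in the percentage of calls to T ran from -19 to -3.25. The excess of T over other reference G ran from 19.9 to 27.8 points with each library left out, where the smallest exact sign-flip p is 0.0625, and was 37.4 in isodecoders. With both copies required, 0 combinations of family and base separated the genotypes in place of 5. With each library left out 5 to 6 did, but leaving out a library cannot lower this count, so it says nothing about stability. For the percentage at bases 9 and 10 no value could be had, since there were no calls.

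Same-numbered libraries correlated at -0.0288, -0.112 and -0.129 in their deviations from the genotype means, and differently numbered ones at -0.0364 to 0.122. With 3 libraries per genotype these values do not show whether the replicates were prepared in pairs. With the replicate number as a block, the differences of 3.67 references, -1.81 points with both copies and -12.7 points to T had exact sign-flip p of 1, 0.75 and 0.25, and 0.25 is the smallest that 3 pairs allow. Depth, which the files do not hold, limits every count.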
